A study of Homo sapiens with 12 samples.

Results

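The genes for the proteins of the cytosolic ribosome were examined in human liver spheroid co-cultures exposed to total parenteral nutrition (TPN), the intravenous mixture of lipids, glucose, amino acids, vitamins and trace elements given when feeding by the gut is not possible. The members were all genes whose symbol is RPL or RPS followed by a number, an optional A, X or L and an optional further number, together with RPLP0, RPLP1, RPLP2 and RPSA. This rule took 83 of the 16705 genes in the table, 51 of the large subunit and 32 of the small subunit, and used no measured value. The spheroids were made of C3A cells, a clonal derivative of the HepG2 hepatoma line, and LX-2 cells, an immortalized line of activated hepatic stellate cells, so each cell type was represented by 1 line. Spheroids were left untreated or exposed to 1% TPN for 24 h or 144 h, with 3 libraries in each of the 4 groups and 12 libraries in all. These times count from the start of the exposure period, which began days after seeding, when the spheroids had formed. The spheroids of each group were therefore older than the time given. Each library held RNA of many pooled spheroids.

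A ribosome joins a small subunit, which reads the mRNA, to a large subunit, which links amino acids and passes the chain out through a tunnel. Its proteins are needed in nearly equal amounts, and their mRNAs are among the most abundant and most stable of a cell. Most of these mRNAs begin with a 5′ terminal oligopyrimidine (TOP) tract, a C followed by further C or U bases, through which mTOR signalling and the protein LARP1 control their translation and stability. The liver, as the source of most plasma proteins, is rich in ribosomes. A few members have a "-like" paralog, a second gene with a closely related sequence.

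To show this shared feature, the 25 bases before and the 25 bases from the annotated transcription start are given for members on which the results below turn, from RefSeq (GRCh38.p14), 5′ to 3′ on the strand of the gene, with the pyrimidine tract that begins at the start in capitals. Where a gene has more than 1 annotated start, the one with the longest tract is shown. RPL39 and RPL10 were among the members that gained most with culture time, RPLP0, RPSA and RPL27A fell under TPN at 144 h, and RPS26 and the -like genes fell with culture time. RPL26, RPS27 and RPL22 are the parents of 3 of these -like genes. RPL37A, which gained most with culture time, and RPL13 have shorter tracts of 6 bases than RPL39 and RPL10 and are not shown.
RPL39 (chrX:119791606-119791655, minus strand): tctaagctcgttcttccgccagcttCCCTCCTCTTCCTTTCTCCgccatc
RPL10 (chrX:154398352-154398401, plus strand): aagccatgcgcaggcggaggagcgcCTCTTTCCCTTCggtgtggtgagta
RPLP0 (chr12:120201087-120201136, minus strand): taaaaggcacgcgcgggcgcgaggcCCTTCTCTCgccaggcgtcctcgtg
RPSA (chr3:39406695-39406744, plus strand): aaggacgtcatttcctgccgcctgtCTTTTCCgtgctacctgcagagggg
RPL27A (chr11:8682767-8682816, plus strand): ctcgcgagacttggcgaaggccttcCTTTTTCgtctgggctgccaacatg
RPS26 (chr12:56041893-56041942, plus strand): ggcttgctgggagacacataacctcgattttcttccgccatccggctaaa
RPL26 (chr17:8383169-8383218, minus strand): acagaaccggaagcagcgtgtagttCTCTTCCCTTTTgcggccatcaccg
RPL26L1 (chr5:172958704-172958753, plus strand): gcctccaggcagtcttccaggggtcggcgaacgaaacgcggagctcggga
RPS27 (chr1:153990737-153990786, plus strand): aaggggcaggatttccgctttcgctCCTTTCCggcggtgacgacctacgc
RPS27L (chr15:63157453-63157502, minus strand): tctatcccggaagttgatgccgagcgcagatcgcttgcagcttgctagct
RPL7L1 (chr6:42879591-42879640, plus strand): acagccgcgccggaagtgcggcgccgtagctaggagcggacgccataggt
RPL22 (chr1:6199571-6199620, minus strand): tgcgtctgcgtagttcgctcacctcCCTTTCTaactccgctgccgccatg
RPL22L1 (chr3:170870171-170870220, minus strand): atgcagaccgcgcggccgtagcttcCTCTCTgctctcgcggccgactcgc

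The tract was searched as a C at the start base followed without a gap by at least 4 C or T bases, on the transcribed strand only. It was found in 47 of the 82 promoters that RefSeq lists for the members (57.3%) and in 4.07% of the 35116 RefSeq promoters of all genes. These 47 promoters belong to 47 of the 66 members with an entry, of which 11 have more than 1 start. When the C could lie up to 10 bases to either side of the annotated start, 79.3% of the members' promoters and 33.5% of all promoters held it. The remaining 17 members were not searched. Such a match describes the letters in the window and not the start used in these cells.

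Ribosomal protein mRNAs were among the most abundant of the spheroids. The mean over all libraries was at least 1000 FPKM (fragments per kilobase of transcript, scaled to the mapped fragments of the library, a level per transcript length) for 52 of the 83 members, and 53 of the 100 genes with the highest mean FPKM were members. The highest levels were those of RPS18, a protein of the head of the small subunit, with a mean of 4947 FPKM, RPS29 with 4462 FPKM, RPL41, the shortest ribosomal protein, with 4441 FPKM, RPS24 with 4293 FPKM and RPS12 with 4264 FPKM. Below these, RPL37 and RPL14 stood at 84.1 and 116 FPKM, and their annotated canonical transcripts of 7573 and 7136 bases were far longer than the median of 869 bases over the members.

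The lowest levels belonged to -like genes. RPL3L, a paralog of RPL3 known from striated muscle, ranged from 0.03 to 0.16 FPKM, and RPL39L, a paralog of RPL39 known from testis, from 0 to 0.58 FPKM. For RPL39L the values were multiples of about 0.12 FPKM, or 0 to 5 fragments per library, with 2 libraries listed at 0. RPL22L1 had a mean of 3.94 FPKM, RPS27L of 9.90 FPKM and RPL26L1 of 67.1 FPKM. RPL3L and RPL39L lay below the filter of a mean of 0.5 FPKM, so 81 members entered the tests.

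The members together made up a larger share of each library at 144 h than at 24 h. Untreated spheroids had 19.55%, 19.62% and 20.03% of the summed FPKM in the members at 24 h and 24.82%, 24.89% and 25.33% at 144 h. With 1% TPN the shares were 19.29%, 19.75% and 19.95% at 24 h and 24.17%, 24.24% and 24.50% at 144 h. The TPN-exposed and untreated libraries thus overlapped at 24 h, whereas at 144 h each TPN-exposed library lay below each untreated one. The mean share was 19.73% ± 0.26 (SD, n = 3) untreated and 19.66% ± 0.34 with TPN at 24 h, and 25.01% ± 0.28 and 24.31% ± 0.17 at 144 h. The large subunit rose from 10.1% ± 0.0880 to 13.1% ± 0.230 in untreated spheroids and the small subunit from 9.61% ± 0.175 to 11.9% ± 0.0759. These shares are descriptions, and no test was made of them.

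**Figure D1:**
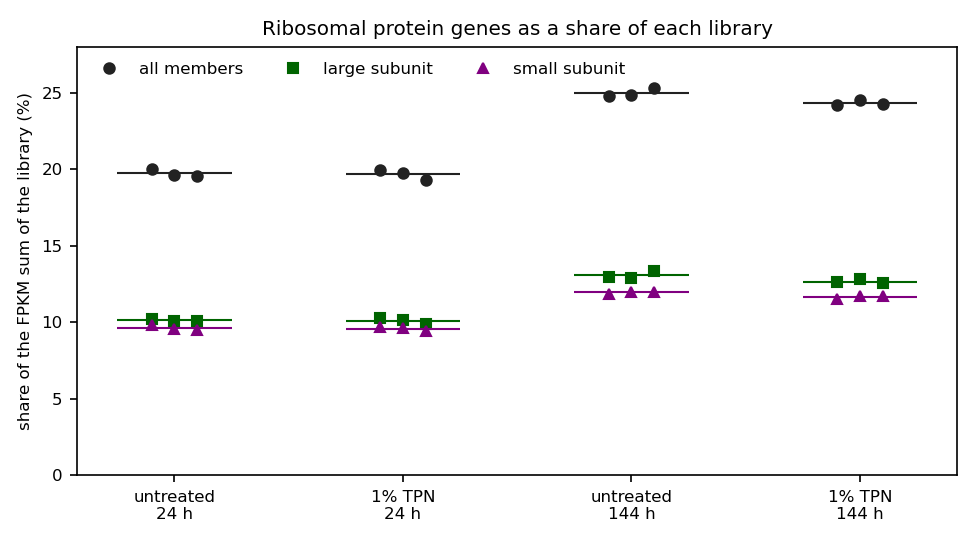
Share of the summed FPKM of each library that belongs to the 83 ribosomal protein genes (circles), the 51 large subunit genes (squares) and the 32 small subunit genes (triangles), in percent, with a line at the mean of 3 libraries per group. The untreated libraries lie at 19.55% to 20.03% at 24 h and at 24.82% to 25.33% at 144 h.

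Replicates of a group lay close together for most members. The median coefficient of variation over the 81 members was 2.82% in untreated and 3.05% in TPN-exposed spheroids at 24 h, and 3.45% and 2.07% at 144 h. The least even were RPL37A in TPN-exposed spheroids at 144 h (16.6%), RPL38 at 24 h (13.3% untreated and 12.7% with TPN) and RPS12 in untreated spheroids at 144 h (12.9%). The last value came from 1 library, in which RPS12 stood at 3795 FPKM against 4799 and 4788 FPKM in the other two.

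The first comparison asked how culture time without TPN changed these genes, with untreated spheroids at 144 h set against untreated spheroids at 24 h. Nearly all core ribosomal protein genes rose, while RPS26 and 4 -like genes fell. Of the 81 members tested, 75 were higher at 144 h and 5 were lower (limma on log2(FPKM + 0.1), Benjamini-Hochberg adjusted p below 0.05 over 11713 genes), whereas 20.1% of all genes tested were higher and 52.4% were lower. With median-ratio scaling, 76 members were higher and 4 lower, and 32.8% of all genes were higher and 34.2% lower. The median log2 fold change was 0.38 for the members and −0.18 for all genes tested. The large subunit had 46 higher and 3 lower of 49 with a median of 0.40, and the small subunit 29 higher and 2 lower of 32 with a median of 0.30. With quantile normalization, which gives every library the same distribution of values, 51 members were higher and 11 lower, and 15 members changed sign.

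The quartiles of the log2 fold change were 0.26 and 0.46, and 6 members were differentially expressed genes (DEGs, those that passed the test with a log2 fold change of more than 0.58 in either direction) that rose. Another 2 members were DEGs that fell. Of the 11713 genes tested, 796 were DEGs that rose and 1434 were DEGs that fell, 19% in either direction. All 6 that rose belong to the large subunit.

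RPL37A, a zinc-binding protein of the large subunit, had 231, 212 and 236 FPKM at 24 h and 401, 364 and 324 FPKM at 144 h. Its log2 fold change of 0.68 ± 0.10 (SE, adjusted p = 2.2e-05) was the highest of the members, with an uneven 144 h group. RPL39, which lines the exit tunnel, had 2000.5, 2052 and 1926 FPKM at 24 h and 3306, 2767 and 3192 FPKM at 144 h, a log2 fold change of 0.63 ± 0.05 (adjusted p = 1.47e-07). RPL10, which joins the large subunit late and sits near the peptidyl transferase centre, had 509.6, 532 and 467 FPKM at 24 h and 734, 762 and 766 FPKM at 144 h. In each of these genes the groups lay apart.

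RPL5, which binds the 5S rRNA together with RPL11, rose with little spread, from 987, 956 and 959 FPKM to 1464, 1406 and 1477 FPKM (log2 fold change 0.58 ± 0.03, adjusted p = 2.43e-10). Log2 fold changes of 0.63 ± 0.04 for RPL23 (adjusted p = 7.51e-09) and 0.60 ± 0.03 for RPL13 (adjusted p = 4.14e-10) made up the DEGs together with RPL10 (0.59 ± 0.04, adjusted p = 2.34e-08). RPL5, at 0.583, was just above the DEG threshold, and RPL15, at 0.575, and RPL31, at 0.566, were just below it. Leaving out 1 library took 4 of the 6 below the threshold, although each still passed the test. RPL10 stood at 0.534, 0.579 and 0.575 without untreated replicate 3 at 24 h, replicate 2 at 144 h and replicate 3 at 144 h. RPL5 stood at 0.569 to 0.577 without untreated replicate 2 or 3 at 24 h or replicate 1 or 3 at 144 h. RPL13 stood at 0.571 without untreated replicate 3 at 144 h, and RPL39 at 0.577 without replicate 1 at 144 h. RPL23 and RPL37A stayed above it.

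RPSA and RPLP0 gained least. RPSA, a small subunit protein also known as the laminin receptor precursor, was the 1 member that did not pass the test, with 1330.0, 1242 and 1290.0 FPKM at 24 h and 1333, 1344 and 1361 FPKM at 144 h (log2 fold change 0.06 ± 0.03, adjusted p = 0.0757). RPLP0, the base of the stalk that recruits translation factors, had 3768, 3688 and 3770.3 FPKM at 24 h and 4086, 4103 and 4244 FPKM at 144 h (0.15 ± 0.03, adjusted p = 5.5e-04). Its stalk partners RPLP1 and RPLP2 rose by 0.32 and 0.23. With quantile normalization RPSA (−0.15, adjusted p = 2.08e-04) and RPLP0 (−0.12, adjusted p = 0.0163) were lower at 144 h, as were, among others, RPL6, RPL13A and RPL19, whereas RPLP1 kept its sign and RPLP2 stood at −0.05 (adjusted p = 0.163). RPS27A, which is made as a fusion with ubiquitin, rose by 0.22 ± 0.04 (adjusted p = 9.93e-05), but stood at −0.01 with quantile normalization (adjusted p = 0.799).

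**Figure D2:**
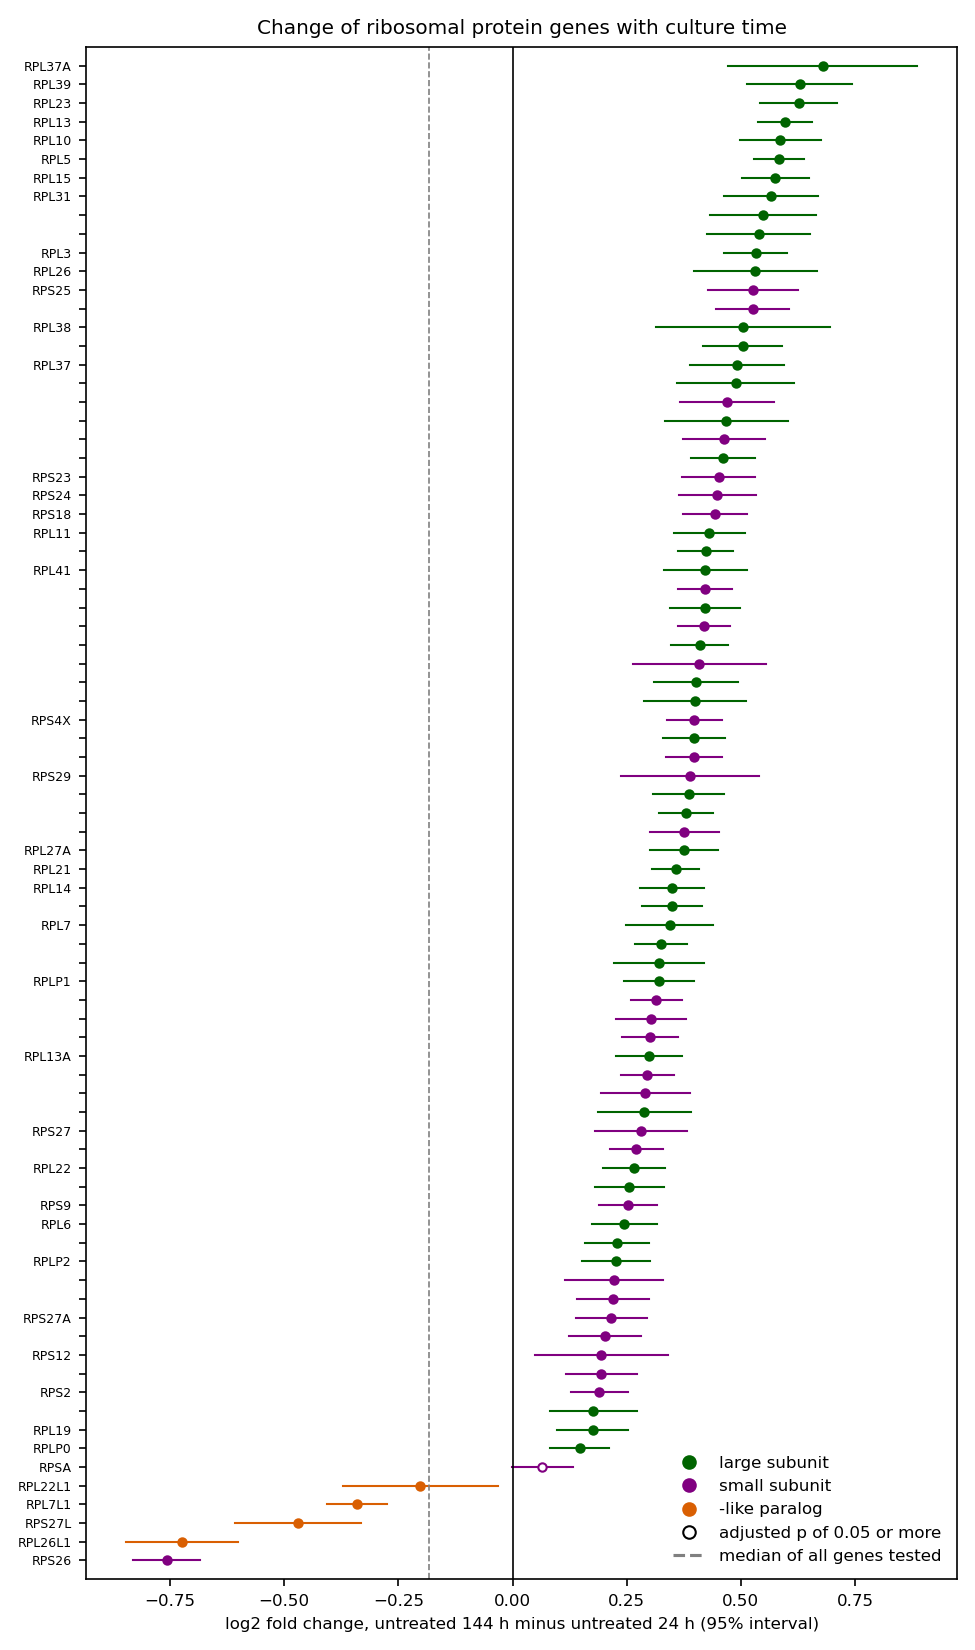
Log2 fold change of 81 ribosomal protein genes between untreated spheroids at 144 h and 24 h, with the 95% interval from limma, ordered by size, coloured by subunit and named where described in the text, with -like paralogs in orange. Of the 81 genes, 75 were higher, RPSA (open circle) did not pass the test, and RPS26 and 4 -like genes lie left of zero; the dashed line is the median of all genes tested, −0.18.

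RPS26, a small subunit protein at the channel where the mRNA leaves the ribosome, was the 1 core member that fell in the FPKM as deposited. Its levels were 370, 360 and 354 FPKM in untreated spheroids at 24 h and 208, 213 and 219 FPKM at 144 h. The log2 fold change was −0.76 ± 0.03 (adjusted p = 3.12e-10), or 0.592 times the 24 h level, and the groups lay far apart. With TPN its levels were 364, 367 and 340 FPKM at 24 h and 198, 196 and 206 FPKM at 144 h. RPS26 fell in the same comparison under each of the scalings tried, by 0.58 with median-ratio scaling and by 0.67 with quantile normalization.

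The -like genes fell while their parents rose. RPL26L1, a close paralog of RPL26, had 89.9, 82.5 and 82.4 FPKM at 24 h and 53.9, 51.5 and 48.8 FPKM at 144 h, a log2 fold change of −0.72 ± 0.06 (adjusted p = 7.6e-08). RPL26 itself went from 2426, 2200.3 and 2255 FPKM to 3343, 3247 and 3350.3 FPKM (0.53 ± 0.06, adjusted p = 3.91e-06). The level of RPL26L1 was thus 3.70% ± 0.0496 (SD, n = 3) of that of RPL26 at 24 h and 1.55% ± 0.0830 at 144 h.

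RPS27L, a p53 target, fell from 11.4, 12.4 and 10.7 FPKM to 8.07, 8.81 and 7.99 FPKM (−0.47 ± 0.06, adjusted p = 1.54e-05), while RPS27 rose by 0.28. RPL7L1, a nucleolar protein related to RPL7, fell from 72.7, 72.1 and 75.6 FPKM to 58.6, 56.6 and 58.7 FPKM (−0.34 ± 0.03, adjusted p = 2.8e-07), while RPL7 rose by 0.34. RPL22L1 had 4.45, 4.26 and 3.90 FPKM at 24 h and 3.49, 3.56 and 3.87 FPKM at 144 h (−0.20 ± 0.08, adjusted p = 0.0335), while RPL22 rose by 0.27. The fall of RPL22L1 was small beside its spread, and its call was lost when any 1 of 4 libraries was left out (adjusted p from 0.0809 to 0.123) and with median-ratio scaling (−0.03, adjusted p = 0.74). Paralogs share sequence with their parents and with processed pseudogenes, so the division of fragments between them is uncertain.

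**Figure D3:**
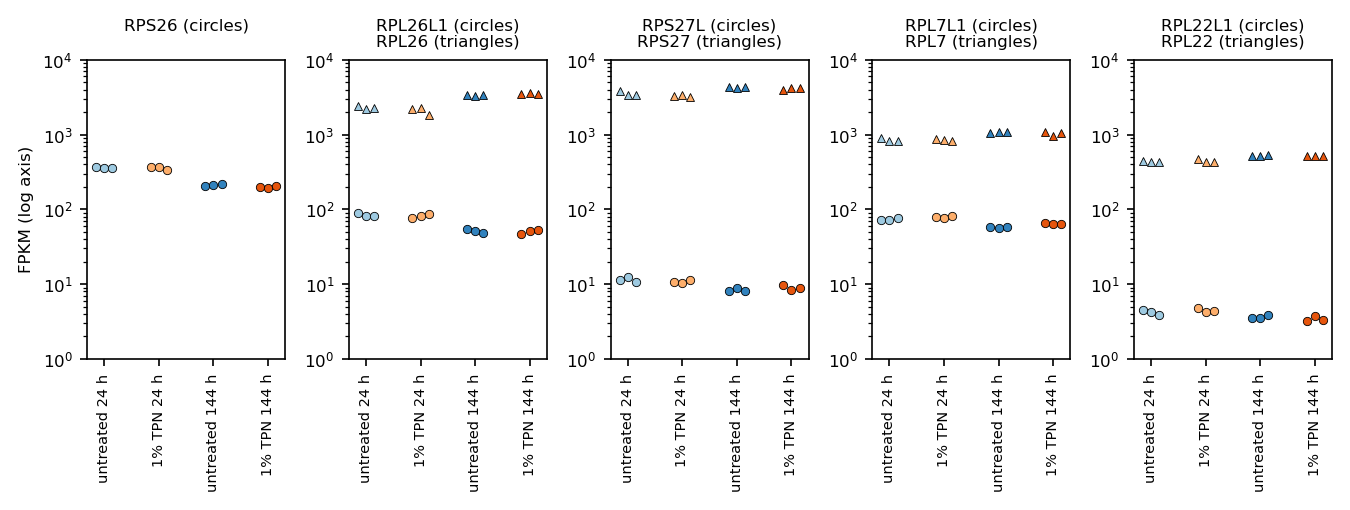
Level in FPKM (log axis) of RPS26 and of 4 -like genes (circles) with their parent genes (triangles) in the 12 libraries, by group. RPS26 and each -like gene lie lower in the untreated libraries at 144 h than at 24 h, and the parents lie higher; RPL26L1 has 48.8 to 53.9 FPKM in untreated libraries at 144 h against 82.4 to 89.9 FPKM at 24 h.

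Members with and without the start tract were set side by side for the time effect. The 47 members with a tract at the annotated start had a median log2 fold change of 0.40 with time and the 19 without one a median of 0.38. Of the 5 members that fell, RPL22L1 had a tract at the start base, and RPS26, RPL26L1, RPS27L and RPL7L1 had none there, as their windows above show. In the wider search of up to 10 bases to either side, RPS26 held a tract, and RPL26L1, RPS27L and RPL7L1 did not. Among genes that are not members, the median was −0.11 for 678 genes with a tract at the start and −0.20 for 8881 genes without.

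Other genes of the ribosome and of translation did not all follow the members. RACK1, a scaffold protein of the small subunit whose symbol lies outside the rule, rose from a mean of 1831 FPKM to 2659 FPKM (log2 fold change 0.54, adjusted p = 3.81e-09). FAU, which encodes a small subunit protein as a fusion, stood at −0.06 (adjusted p = 0.121). Of 22 other translation genes, most of them known to have TOP mRNAs, 18 were higher and 1, BTF3, was lower (−0.13), with a median of 0.29. Of all genes tested, 20.1% were higher and 52.4% lower.

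Genes that build ribosomes mostly fell at 144 h, when 52.4% of all genes tested were lower and 20.1% higher. Of 57 ribosome biogenesis factors, 49 were lower and 3 were higher with a median of −0.40, and TCOF1, which supports rRNA gene transcription, fell by 0.64. The 3 that were higher were NPM1 (0.11), NOB1 (0.14) and NMD3 (0.30). Of 14 genes for RNA polymerase I and its factors, 10 were lower, UBTF among them (−0.57), and POLR1D (0.65) and TAF1D (0.88) were higher.

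The counts of the next 3 lists are to be read against the 52.4% of all genes tested that were lower. Of 29 initiation factors, 19 were lower and 6 higher. Of 14 ribosomal protein chaperones and nuclear transport receptors, 9 were lower, and IPO5 (0.16), IPO7 (0.16) and NAP1L1 (0.41) were higher. Of 20 genes that regulate ribosome production, 11 were lower, and SP1 (0.18) and MDM4 (0.42) were higher. Median-ratio scaling moved the median of all genes from −0.18 to −0.01, so log2 fold changes near −0.18 are near the middle of all genes.

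Markers of the cell types and of proliferation moved in the same comparison, in which 52.4% of all genes tested were lower and 20.1% higher. The summed FPKM of 12 stellate cell markers ranged from 138 to 146 in untreated spheroids at 24 h and from 75.8 to 80.7 at 144 h, with 8 of the 9 tested lower, a median log2 fold change of −2.11 and DCN at 0 in every library of both groups. COL1A1 fell by 2.93 and VIM by 2.67. The better expressed SPARC fell by 1.01 and ACTA2 by 0.27, from a mean of 57.8 to 47.9 FPKM, and PDGFRB (−0.01) did not pass. By PCR, the paper reported stellate cell markers, COL1A1, PDGFRB and ACTA2 among them, as stable between the start and the end of the exposure period. All 22 proliferation genes were lower, with sums of 2169 to 2189 FPKM at 24 h and 1352 to 1383 FPKM at 144 h. The summed FPKM of 10 hepatocyte markers ranged from 16503 to 16954 at 24 h and from 20151 to 21413 at 144 h, with ALB, AHSG, TF, TTR and FGB higher and APOB, APOH and HNF4A lower. The part of these shifts in the rise of the members was not tested, and in such bulk libraries fewer cells of a type and less RNA per cell cannot be told apart.

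**Figure D4:**
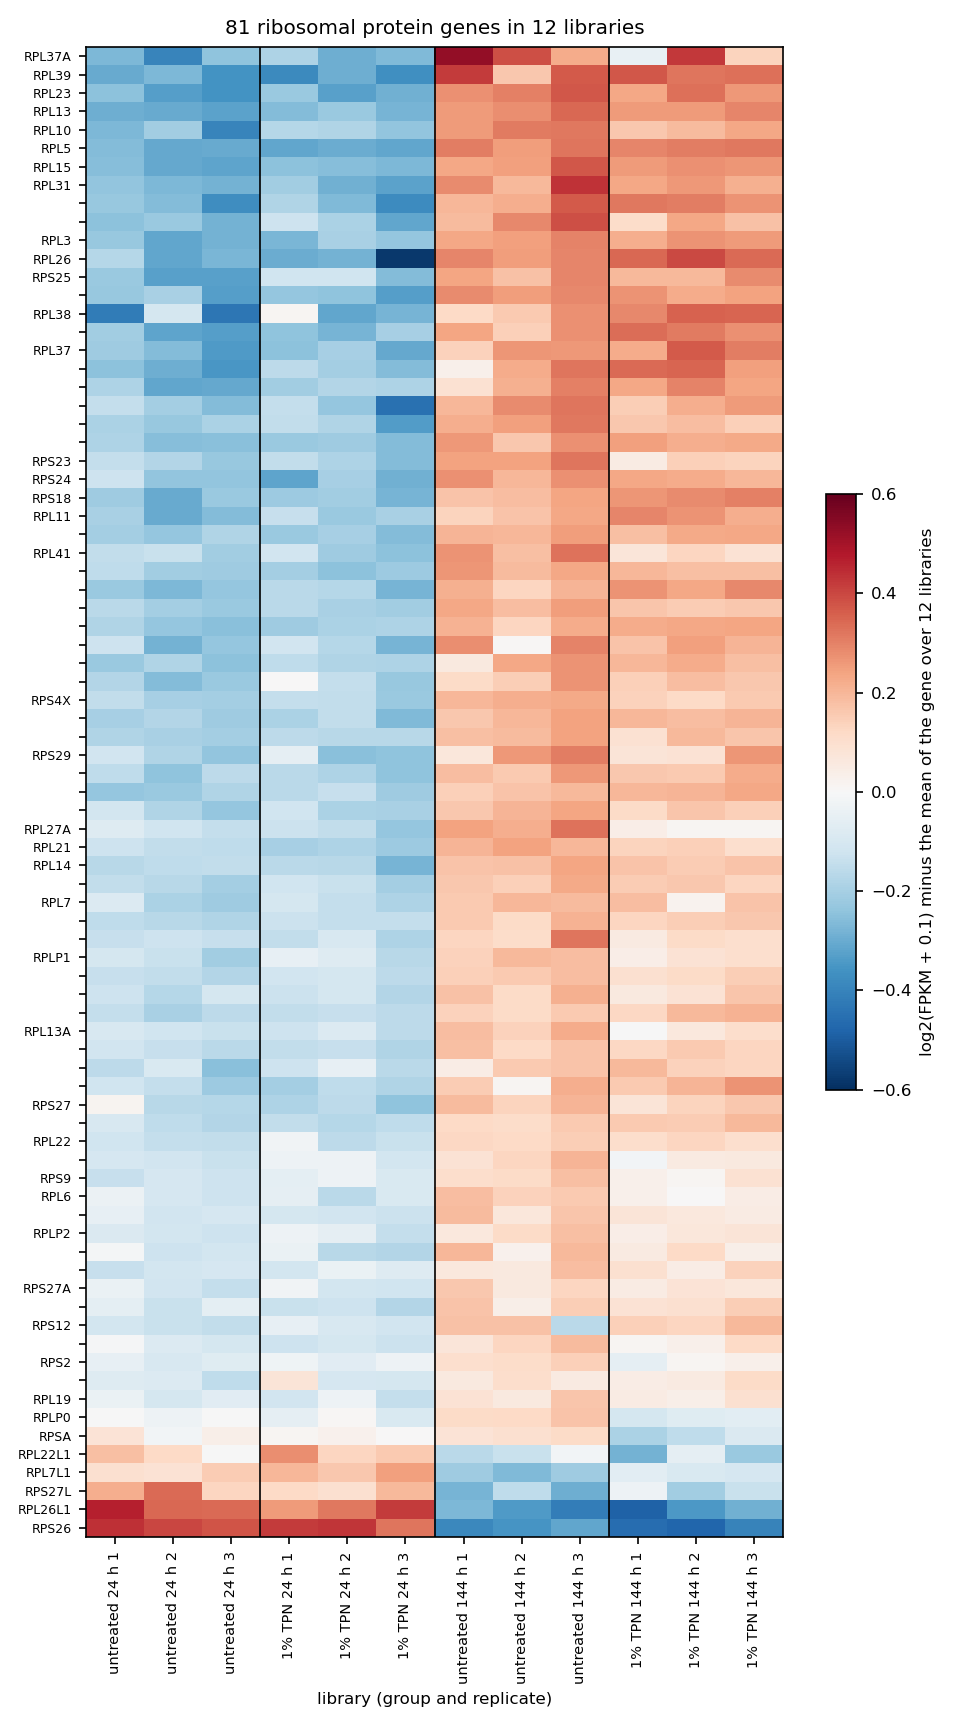
Heat map of 81 ribosomal protein genes (rows, ordered by their change with time in untreated spheroids, with names for those described in the text) in 12 libraries (columns), as log2(FPKM + 0.1) minus the mean of the gene, with colours from −0.6 to 0.6. The 6 libraries at 24 h are mostly blue and the 6 at 144 h mostly red, and the 5 lowest rows, RPL22L1 to RPS26, show the reverse.

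The second comparison set 1% TPN against untreated spheroids at 24 h. No ribosomal protein gene passed the test. None of the 81 members was higher or lower by limma, against 5.04% of all genes tested that were higher, 5.46% that were lower and 0.914% that were DEGs. Log2 fold changes lay between −0.13 (RPL26) and 0.13 (RPL38), with a median of 0.01. An unadjusted p below 0.05 was found for 2803 of the 11713 genes tested and for 4 of the 81 members.

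The 4 members were RPL21 (−0.06, adjusted p = 0.153), RPL7L1 (0.09, adjusted p = 0.0839), RPL10 (0.10, adjusted p = 0.165) and RPS25 (0.12, adjusted p = 0.109). RPL21 and RPL7L1 had groups that did not overlap, and those of RPL10 and RPS25 overlapped. Of the 81 members, the TPN libraries lay wholly above the untreated ones for 5 and wholly below for 2. Of the 11713 genes tested, they did so for 1631 and 1866. RPL7L1 had 72.7, 72.1 and 75.6 FPKM untreated and 78.0, 76.0 and 80.5 FPKM with TPN. RPL26 had 2223, 2246 and 1829 FPKM with TPN, so that 1 library set most of its value, and its log2 fold change of −0.13 ± 0.06 did not pass (adjusted p = 0.219).

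At 24 h the ribosome biogenesis factors were 6 higher and 0 lower of 57, against 5.04% and 5.46% of all genes tested, with a median of 0.07. An unadjusted p below 0.05 was found for 22 of the 57, against 2803 of the 11713 genes tested. Of the RNA polymerase I genes, POLR1B (0.19, adjusted p = 0.0375) and POLR1D (0.16, adjusted p = 0.0311) were higher, and of the regulators MYC (0.22) and MDM2 (0.14). No gene of the other translation genes, the initiation factors or the chaperones and nuclear transport receptors passed. An unadjusted p below 0.05 was found for 1 of 22, 7 of 29 and 4 of 14 of them. Hepatocyte markers were 6 lower of 10 and proliferation genes 15 lower of 22, and of the stellate markers ACTA2 (−0.29) was lower.

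The third comparison set 1% TPN against untreated spheroids at 144 h. Changes of the ribosomal protein genes were small, and most of those that passed were falls. Of the 81 members, 14 were lower and 2 higher by limma, against 28.3% of all genes tested that were lower and 24.2% that were higher. The count of members lower depended on the scaling: it was 27 (33.3%, against 32.2% of all genes) with the same total FPKM of all other genes, 27 (33.3% against 28.8%) with quantile normalization, 24 with the same total FPKM, 23 (28.4% against 29.2%) with the trend in length and GC content removed and 11 (13.6% against 27% of all genes) with median-ratio scaling. A share of members below that of all genes was therefore not seen with each scaling. None was a DEG, against 9.48% of all genes. The median log2 fold change was −0.03 for the members and −0.02 for all genes, and the members' values ranged from −0.24 to 0.15.

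RPL27A, a large subunit protein, was the member with the largest fall. It had 208, 205 and 221 FPKM in untreated and 182, 178 and 178 FPKM in TPN-exposed spheroids, a log2 fold change of −0.24 ± 0.03 (adjusted p = 5.76e-05). RPSA had 1333, 1344 and 1361 FPKM untreated and 1104, 1134 and 1183 FPKM with TPN (−0.24 ± 0.03, adjusted p = 2.3e-05). In both genes every TPN-exposed library lay below every untreated one.

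Of the stalk proteins, RPLP0 and RPLP1 passed the test. RPLP0 had 4086, 4103 and 4244 FPKM untreated and 3509.7, 3586 and 3614 FPKM with TPN (−0.22 ± 0.03, adjusted p = 4.44e-05), with groups that did not overlap. RPLP1 was lower by a smaller amount (−0.10 ± 0.04, adjusted p = 0.0364), and RPLP2, at −0.06 ± 0.03, did not pass (adjusted p = 0.18).

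RPL41 (−0.16 ± 0.04, adjusted p = 0.00493) and RPS23, which sits at the decoding centre (−0.16 ± 0.04, adjusted p = 0.00261), came next. With quantile normalization RPL41 did not pass (−0.09, adjusted p = 0.0743). RPS23 had 300.4, 301 and 317 FPKM untreated and 263, 281 and 279 FPKM with TPN. The other members that were lower, between −0.13 and −0.08, included RPL6, RPL13A, RPS2, RPS26, RPL21, RPS9 and RPS4X.

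RPL7L1 and RPS18 were higher. RPL7L1 had 58.6, 56.6 and 58.7 FPKM untreated and 65.0, 63.8 and 63.3 FPKM with TPN (0.14 ± 0.03, adjusted p = 0.0014), with groups that lay apart, as at 24 h. RPS18 had 5490.0, 5543 and 5741 FPKM untreated and 5866, 5928 and 6021 FPKM with TPN (0.09 ± 0.03, adjusted p = 0.0371). The call of RPS18 was lost when any 1 of 5 libraries at 144 h was left out (adjusted p from 0.0532 to 0.116), and with no filter, the same total FPKM of all other genes, quantile normalization, the trend in length and GC content removed or no intensity trend in limma (adjusted p from 0.0667 to 0.254). Without untreated replicate 3 at 144 h it held, and 6 members were higher. Without TPN replicate 1 at 144 h, 9 members were lower. RPL37A, with 270.1, 373 and 305 FPKM under TPN, had a log2 fold change of −0.21 ± 0.10 that did not pass in view of its spread.

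**Figure D5:**
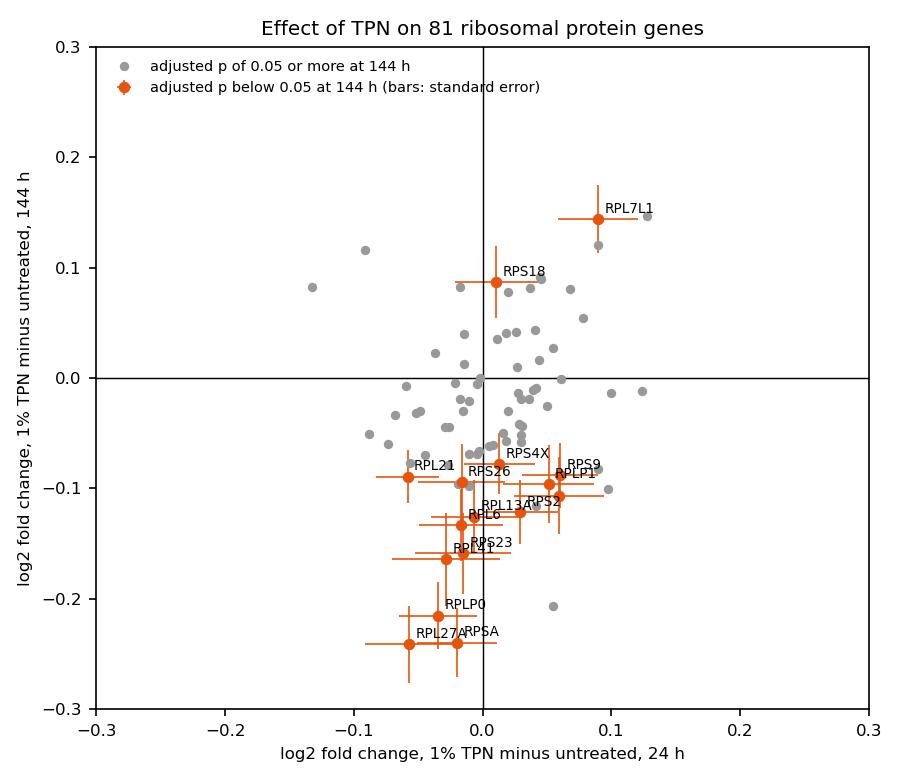
Log2 fold change of 81 ribosomal protein genes with 1% TPN against untreated spheroids at 24 h (horizontal axis) and at 144 h (vertical axis), with standard errors for the 16 genes that passed the test at 144 h (orange, with names for those described in the text). The values at 144 h range from −0.24 for RPL27A to 0.15, and those at 24 h from −0.13 to 0.13.

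The interaction of TPN and time compared the TPN effects of the 2 exposure times. For 8 members the effect was lower at 144 h and for none higher, against 16.3% of all genes tested that were lower and 14.1% that were higher. The count was 5 with no filter, 7 with median-ratio scaling, 12 with the same total FPKM, 13 with the same total of all other genes, 15 (18.5% against 16.8% of all genes) with quantile normalization and 17 (21% against 18.2%) with the trend in length and GC content removed, so the members' share lay on both sides of that of all genes. None passed the DEG threshold, against 5.87% of all genes. Of the 81 members, 15 had an unadjusted p below 0.05, against 4827 of the 11713 genes tested. For RPSA the difference was −0.22 ± 0.04 (adjusted p = 0.00205), from −0.02 at 24 h to −0.24 at 144 h. For RPLP0 it was −0.18 ± 0.04 (adjusted p = 0.00598), from −0.03 to −0.22, and for RPL27A −0.18 ± 0.05 (adjusted p = 0.0121), from −0.06 to −0.24.

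RPL10 differed by −0.20 ± 0.06 (adjusted p = 0.0203), although neither of its TPN effects passed on its own, 0.10 at 24 h and −0.10 at 144 h. Lower as well were RPS2 and RPS9, both near the mRNA entry of the small subunit (−0.15 each), and RPLP1 (−0.15). RPL7L1, which was higher with TPN at 144 h, had 0.05 ± 0.04, so a difference between the exposure times was not detected for it.

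At 144 h the lists of related genes are to be read against the 28.3% of all genes tested that were lower and the 24.2% that were higher. The ribosome biogenesis factors were 17 lower and 3 higher of 57, with a median of −0.04. MPHOSPH10, a component of the small subunit processome, fell by 0.31, DDX47 by 0.26, TCOF1 by 0.23 and BRIX1, a large subunit assembly factor, by 0.22, while NOLC1 (0.21), NOP10 (0.16) and RRP12 (0.11) were higher. Of the 14 RNA polymerase I genes, TAF1D (−0.26), UBTF (−0.21) and POLR1E (−0.16) were lower and none was higher.

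Of the 22 other translation genes, 8 were lower, with IPO5 (−0.38), the RNA-binding protein gene HNRNPA1 (−0.36) and the elongation factor gene EEF1D (−0.18) the largest, and EIF3H (0.18), EEF2 (0.11), EIF4A2 (0.11) and IPO7 (0.09) were higher. Of the 29 initiation factors, 10 were lower, EIF3C (−0.28), EIF1AX (−0.21) and EIF2A (−0.18) among them, and EIF4G3 (0.40), EIF3D (0.13) and EIF3I (0.09) were higher. The 14 chaperones and nuclear transport receptors share IPO5, IPO7 and NAP1L1 with the other translation genes. Of the 14, 4 were lower and 5 higher, with a median of 0.04. The import receptors went both ways, with IPO5, IPO9 (−0.35) and IPO4 (−0.28) lower and TNPO1 (0.17) and IPO7 higher. AATF (−0.20) was lower, and PDCD2, a chaperone of RPS2 (0.22), XPO1, an export receptor (0.14), and HEATR3 (0.13) were higher.

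Of the 20 regulators tested, 6 were lower, MTOR (−0.24) and SP1 (−0.22) among them, and 5 were higher. The 5 were MDM2 (0.24), EIF4EBP1, a repressor of cap-dependent translation (0.24), YY1 (0.15), MYC (0.14) and RHEB (0.14).

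Markers of the cell types moved with TPN at 144 h as well, where 28.3% of all genes tested were lower and 24.2% higher. The summed FPKM of the hepatocyte markers ranged from 20151 to 21413 in untreated and from 16756 to 17978 in TPN-exposed spheroids, with 7 of 10 lower, and ALB fell by 0.65. The stellate markers ranged from 75.8 to 80.7 and from 70.5 to 73.1, with COL3A1, COL1A1, COL1A2, VIM and PDGFRB lower of 9 tested. DCN was listed at 0 in each untreated library and LUM in each exposed one. Levels of the collagen genes were low, with untreated and exposed means of 0.50 and 0.13 FPKM for COL3A1, 0.27 and 0.09 for COL1A2 and 1.92 and 0.75 for COL1A1. The better expressed ACTA2 (47.9 and 45.4 FPKM) and SPARC (20.8 and 21.7 FPKM) did not pass, nor did TAGLN and THY1. All 22 proliferation genes were lower, with sums of 1352 to 1383 FPKM against 924 to 962 FPKM. Their part in the changes of the members was not tested.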

How the data were processed

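RNA was measured in 12 libraries of C3A and LX-2 spheroid co-cultures, 3 in each of 4 groups. According to the study's methods, experiments were repeated independently. Strand-specific mRNA libraries were sequenced by the authors on the DNBSEQ platform, filtered with SOAPnuke, aligned to GRCh38.p13 with HISAT2 2.0.4, mapped to reference transcripts with Bowtie2 2.2.5, and quantified with RSEM. The FPKM values deposited by the authors were used without further scaling. Their summed FPKM per library ranged from 561657 to 583722. Library depth is not given in the sources used here, so no counting intervals are stated. The authors used DESeq2, which needs counts, and limma was used here instead. In the table, 20 lines with broken annotation were left out.

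Of the genes in the table, 11713 had a mean of 0.5 FPKM or more. Their log2(FPKM + 0.1) values entered limma 3.58.1 (R 4.3.3) in 1 model of the 4 groups, with eBayes and an intensity trend, and p-values were adjusted by Benjamini-Hochberg over all these genes. Fold changes are on the log2(FPKM + 0.1) scale. The comparison of culture time shares its untreated libraries with both TPN comparisons. Members named with values were DEGs, the 5 largest rises and falls per comparison, the 5 highest and 5 lowest levels, the stalk proteins, the -like genes with their parents, RPSA and RPS27A, and, of each of the lists of related genes, up to 4 with the largest TPN effect. Some members that meet this rule are not reported here. Other genes were named after their values were seen. Members, lists, the tract search and the paralog ratios were chosen with earlier results of these data known. Lists held ribosome biogenesis factors, RNA polymerase I genes, other translation genes, initiation factors and regulators. Further lists held chaperones and nuclear transport receptors, hepatocyte and stellate cell markers and proliferation genes. The fit was tested on simulated data with independent noise and known changes only under TPN at 144 h. It missed the threshold first set for recovered genes, which was then lowered, and the fit was not altered. Transcript lengths came from GENCODE and start windows from RefSeq. Tables were made in Python 3.11.15 (pandas 2.3.3, numpy 2.4.6) and figures with matplotlib 3.10.9. Alternatives were other pseudocounts (1 and 0.01), filters (none and 5), 5 scalings, no trend, a replicate block, fits of only the groups compared and each library left out.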

Additional observations from a re-analysis of the deposited data

Results flagged for a closer look

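For 8 ribosomal protein genes, the effect of 1% TPN differed between the 2 exposure times by limma's interaction of TPN and time (adjusted p below 0.05 over all genes tested), with the lower effect at 144 h. The count ranged from 5 with no filter to 17 with the trend in length and GC content removed, and 16.3% of all genes tested had a lower effect at 144 h. Among them, the differences on the log2 scale were −0.22 for RPSA, −0.20 for RPL10, −0.18 for RPL27A, −0.18 for RPLP0, −0.15 for RPS2, −0.15 for RPS9 and −0.15 for RPLP1. The call of RPL10 was lost with no intensity trend (adjusted p = 0.051).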

How the results depend on the processing

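No named member that passed a test changed sign under the alternatives listed for it, except members that rose with time and turned lower with quantile normalization. The time effect kept between 51 and 76 members higher. Its members' median was 0.46 with libraries scaled to the same total FPKM of all other genes, 0.55 with median-ratio scaling, 0.12 with quantile normalization and 0.42 with the trend in length and GC content removed, and 11 members were lower with quantile normalization. At 24 h, 1 member was lower with quantile normalization and 3 were higher with the length and GC trend removed. At 144 h, members lower with TPN were 24 with the same total FPKM, 27 with the same total of all other genes and with quantile normalization (medians −0.0581 and −0.0619), and 23 with the length and GC trend removed. Only 1 was higher with no filter, with the same total of all other genes, with quantile normalization, with no trend and with the replicate block. For the interaction, 5 members were lower with no filter, 13 with the same total of all other genes, 15 with quantile normalization and 17 with the length and GC trend removed. The causes were not tested. Median-ratio scaling gave summed FPKM of 104853 and 105320 in untreated and TPN-exposed spheroids at 24 h and of 151562 and 149680 at 144 h, against 111569, 111918, 142962 and 140319 as deposited.

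With each library left out in turn, members higher and lower numbered 0 to 1 and 0 for TPN at 24 h (median −0.0059 to 0.029), 1 to 6 and 9 to 17 for TPN at 144 h (−0.0468 to −0.0134), 0 to 1 and 6 to 13 for the interaction (−0.0599 to −0.0169), and 74 to 76 and 4 to 5 for time (0.3566 to 0.3958). The 13 came without TPN replicate 3 at 24 h. Deviations from the group mean had correlations from −0.083 to 0.151 for samples of the same number and from −0.163 to 0.077 for samples of different number. The highest values were those of the same number. As all were weak, the numbers were not taken as pairs, but a pairing is not excluded. With the replicate block, RPS18 lost its call at 144 h (adjusted p = 0.0561). FPKM of a library are relative to its other genes, so changes in total RNA cannot be seen.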
